A study of Mus musculus with 12 samples.

Results

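The neural lineage priming genes described here were Sox1, Pax6, Nes, Zfp521, Hes5, Tubb3, Ncam1, Sox21 and Zic1. They were chosen by gene symbol, and each of the 9 symbols matched 1 gene among the 39179 in the count table. RNA was measured by total RNA sequencing of mouse embryonic stem cells in 12 libraries from 2 experiments on BMP signalling, in which bone morphogenetic proteins activate SMAD1 and SMAD5. The first experiment used BRE-GFP cells, which carry a GFP reporter for a BMP response element, of mixed CBA and C57Bl/6 strain. They were grown in FCS and Lif on feeders and sorted for SSEA1 and GFP into BRE-positive (3 libraries) and BRE-negative cells (3 libraries), with 1 library of each taken at each of 3 collection times. The second experiment used Smad1/5 -/- cells (KO, 4 libraries) and Smad1/5 fl/fl cells (FL, 2 libraries), of mixed CD-1, 129/Ola and C57Bl/6 strain, grown in 2i and Lif on gelatin. The series names 2 parental lines for these libraries, and each gave 1 FL library and 2 KO ones.

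During development, neural fate arises from the epiblast where BMP signalling is low or blocked, and BMP acts against it partly through the ID proteins, which bind and inhibit neural basic helix-loop-helix factors. Sox1, a SOXB1 transcription factor gene, is among the earliest markers of committed neural cells, and Zfp521 encodes a zinc finger protein that drives embryonic stem cells toward neural progenitors. Pax6 and Zic1 encode transcription factors of the neural plate and tube, Sox21 a SOXB2 factor, and Hes5 an effector of Notch signalling in neural progenitors. Nes encodes the intermediate filament protein nestin, Tubb3 the beta-tubulin of neurons, and Ncam1 a neural cell adhesion molecule.

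Library totals lay between 25862573 and 37319846 counts. All 8 pluripotency markers listed for this purpose were tested in each comparison, and their summed level was 7253 to 8341 TPM (transcripts scaled to gene length and library) in BRE-positive, 7243 to 8427 TPM in BRE-negative, 7361 to 9110 TPM in KO and 8620 and 9461 TPM in FL libraries. Most of each sum was Dppa5a, at means of 4882, 4925, 4536 and 5162 TPM in these groups, so the sums hide differences in other markers. In the same order, Zfp42 averaged 199, 175, 872 and 956 TPM, and Utf1 209, 227, 144 and 86.8 TPM. Dcx, a gene of migrating neurons, had 0 or 1 counts in the BRE-positive libraries and 0 counts in the other 9. In the KO libraries Smad1 had 373 to 619 counts and Smad5 880 to 1176, against 643 and 665 and 1136 and 1153 counts in FL. The log2 fold changes were -0.36 ± 0.14 and -0.09 ± 0.13 (SE, edgeR adjusted p = 0.187 and 0.719), and since the deleted parts are not given, these counts do not check the genotype labels. The 15 feeder fibroblast markers summed to 30.1 to 91.1 TPM in BRE-positive, 42.8 to 98.7 TPM in BRE-negative, 11.4 to 13.7 TPM in KO and 16.9 and 11.2 TPM in FL libraries, and 2 of them, Postn and Lum, had 0 counts in all KO libraries.

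The genes lie on 7 chromosomes of the mm10 assembly (GENCODE M21 annotation). Sox1 (ENSMUSG00000096014) has a single exon on chromosome 8 from 12395295 to 12400126, and Sox21 (ENSMUSG00000061517) a single exon on chromosome 14 from 118233232 to 118237030. Tubb3 (ENSMUSG00000062380) spans 123411424 to 123422015 of chromosome 8 in 4 exon blocks, and Nes (ENSMUSG00000004891) 87971078 to 87980451 of chromosome 3. Ncam1 (ENSMUSG00000039542) covers 49502136 to 49798925 of chromosome 9, Zfp521 (ENSMUSG00000024420) 13687013 to 13972787 of chromosome 18 and Pax6 (ENSMUSG00000027168) 105668900 to 105697364 of chromosome 2. Hes5 (ENSMUSG00000048001) lies at 154960923 to 154962371 of chromosome 4 and Zic1 (ENSMUSG00000032368) at 91358058 to 91365810 of chromosome 9. The strand setting of the counting is not given, so reads of antisense partners cannot be told apart. The partner that overlaps Sox21, the noncoding gene Gm4675, had 0 to 18 counts per library, against 58 to 585 for Sox21, and the other overlapping genes had 0 to 2.

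The members ranged from an abundant transcript to a few reads. Tubb3 was the highest member in every group, at 77.3 ± 25.2 TPM in BRE-positive and 84.0 ± 23.6 TPM in BRE-negative cells (SD, n = 3 each), and at 68.7 ± 7.4 TPM in KO (SD, n = 4) and 98 ± 14.0 TPM in FL cells (SD, n = 2). In the reporter cells Sox1, Sox21, Nes, Ncam1 and Zfp521 followed in that order by mean TPM in both groups. In KO and FL cells the order was Ncam1, Nes, Sox21 and Sox1, with Zfp521 at 0.0586 to 0.223 TPM. Hes5 had 0 to 5 counts and Zic1 0 to 5 counts in each of the 12 libraries. Neither passed the filter on low counts in any comparison, so their presence above single reads was not measurable at this depth. The other 7 members were tested in all 3 comparisons. For Sox1, Sox21, Zfp521, Pax6 and Ncam1 both reporter groups lay apart from KO and FL, while the ranges overlapped within each experiment. The share of all genes that lay apart in this way was not computed, so the separation cannot be read as particular to the members. For Nes and Tubb3 the ranges of groups next to each other by mean overlapped throughout. KO and FL are not neighbours by mean for Tubb3, and there KO (60.5 to 78.1 TPM) lay below FL (88.1 and 107.9 TPM). The share of all genes with KO and FL apart was not computed.

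**Figure D1:**
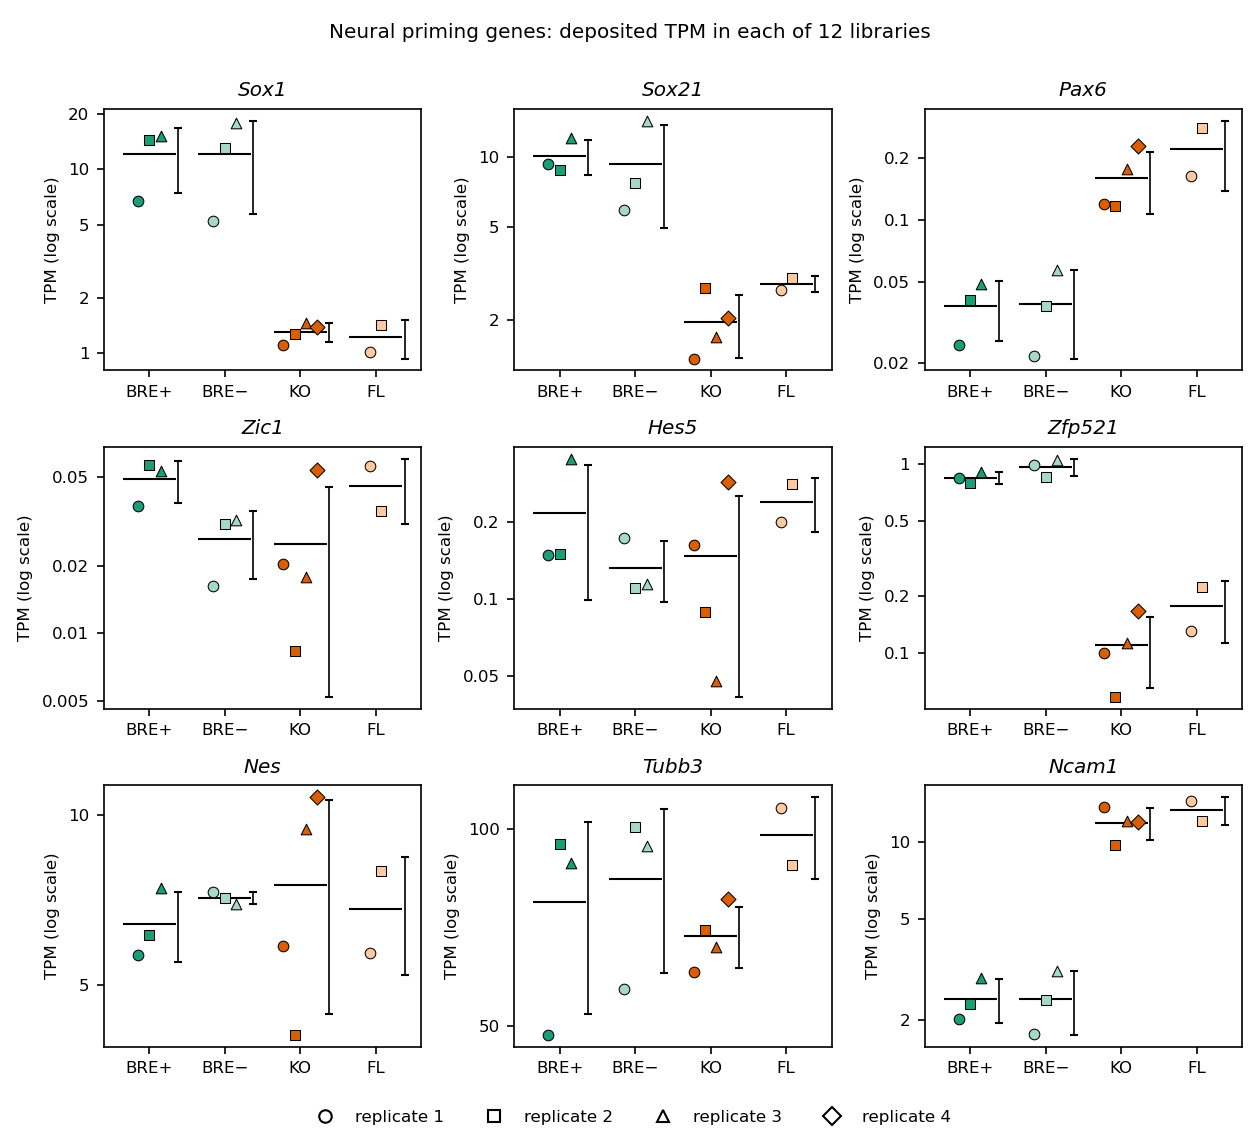
Deposited TPM of the 9 neural priming genes, with 1 panel per gene, a logarithmic vertical axis, the 4 groups side by side (BRE+ and BRE−, BRE-positive and BRE-negative), 1 point per library, a line at the mean and a bar of 1 SD beside it. Sox1, Sox21 and Zfp521 stand higher in the 6 reporter libraries than in the 6 Smad1/5 libraries and Pax6 and Ncam1 lower, with no overlap. The share of all genes with no overlap was not computed.

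RefSeq promoters (GRCm38.p6) were at hand for 7 members in 8 entries. They were searched, on both strands of the 250 bases before the RefSeq start, for GGCGCC, the GC-rich element used in BMP reporters, and for CAGAC, the SMAD binding element, which reads GTCTG on the other strand. GGCGCC reads the same on both strands. It was found in 2 of the 8 entries, with 4 matches for Hes5 and 1 for Zic1, against 9.59% of 32851 promoter entries of all genes. CAGAC was found in 5 of the 8, with 2 matches in 1 Pax6 entry and 1 match each in the other Pax6 entry, Nes, Tubb3 and Sox21, against 42.2% of all. The Sox1 entry held neither, but only 26 of its 250 bases lie before both the RefSeq and the GENCODE start. In the other Pax6 entry 0 bases do. The 3 windows below are shown because Tubb3 passed the test between the reporter groups, Sox21 differed between the experiments and Hes5, at a few reads, held the most GGCGCC. Each is cut to the bases before both the RefSeq and the GENCODE start, capitals mark the matches, which do not overlap, and the positions are chr8:123411303-123411423 (plus strand), chr14:118237031-118237280 (minus strand) and chr4:154960673-154960922 (plus strand).
Tubb3: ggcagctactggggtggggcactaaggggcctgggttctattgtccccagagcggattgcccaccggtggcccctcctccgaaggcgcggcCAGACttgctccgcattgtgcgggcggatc
Sox21: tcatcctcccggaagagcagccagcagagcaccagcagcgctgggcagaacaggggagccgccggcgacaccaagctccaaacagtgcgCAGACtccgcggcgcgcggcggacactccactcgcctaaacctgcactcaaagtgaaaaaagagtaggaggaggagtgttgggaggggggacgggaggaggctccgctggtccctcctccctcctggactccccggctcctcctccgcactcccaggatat
Hes5: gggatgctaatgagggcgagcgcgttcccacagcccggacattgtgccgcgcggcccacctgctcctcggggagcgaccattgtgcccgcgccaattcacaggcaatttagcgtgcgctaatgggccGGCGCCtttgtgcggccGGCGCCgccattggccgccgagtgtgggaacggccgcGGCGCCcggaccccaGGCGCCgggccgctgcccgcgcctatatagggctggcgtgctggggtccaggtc
A match is a description of the letters and not of SMAD binding.

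The first comparison asked whether the activity of the BMP reporter goes with a difference in neural priming genes within 1 culture. BRE-positive cells held slightly less Tubb3 RNA than their BRE-negative partners, and the other 6 tested members did not pass the test. Tubb3 stood at 48.5, 94.8 and 88.7 TPM in the BRE-positive libraries of collections 1 to 3, against 57.0, 100.8 and 94.1 TPM in the BRE-negative ones. The BRE-positive value was the lower of the pair in 3 of 3 collections, by less than the distance between collection 1 and the other two. The difference was 1.17-fold (log2 fold change -0.23 ± 0.06, SE, edgeR adjusted p = 0.0431). Over all genes, 2.97% passed (459 of 15435), 1.96% as higher and 1.02% as lower. The median log2 fold change of the 7 members was -0.11, against -0.00 over all genes tested.

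Nes stood at 5.66, 6.14 and 7.43 TPM in BRE-positive cells, against 7.31, 7.15 and 6.96 TPM in BRE-negative cells. It was lower in the BRE-positive library in collections 1 and 2 and higher in collection 3, and its log2 fold change was -0.26 ± 0.08 (SE, edgeR adjusted p = 0.0844). Sox1 was at 6.73, 14.3 and 15.2 TPM in BRE-positive cells, against 5.26, 13.0 and 17.75 TPM in BRE-negative cells. The ranges overlapped, and the log2 fold change was -0.03 ± 0.10 (SE), with a 95% interval of -0.25 to 0.19. Sox21 had 9.36, 8.83 and 12.01 TPM in BRE-positive cells and 5.94, 7.77 and 14.3 TPM in BRE-negative cells. Its pairs split like those of Sox1, higher in the BRE-positive library in collections 1 and 2 and lower in collection 3 (log2 fold change 0.09 ± 0.14, SE, interval -0.21 to 0.39). Zfp521 was also lower on the BRE-positive side of all 3 collections, at 0.847, 0.794 and 0.915 TPM against 0.995, 0.858 and 1.06 TPM in BRE-negative cells. With 48 to 86 counts per library its log2 fold change was -0.28 ± 0.17 (SE, edgeR adjusted p = 0.436). Ncam1 (-0.08 ± 0.10) and Pax6 (-0.11 ± 0.41, SE, at 7 to 15 counts per library) had edgeR adjusted p = 0.72 and 0.912.

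Of 15 feeder fibroblast markers, 5 were lower in BRE-positive cells and 0 higher (33.3% called, against 2.97% of all genes). Against a median log2 fold change of -0.00 over all genes, the markers had a median of -0.42. Their summed level was lower in the BRE-positive library of each pair, at 30.1, 91.1 and 78.4 TPM against 42.8, 98.7 and 89.2 TPM in BRE-negative cells. The part of this difference in the values of Tubb3 and Nes was not tested. The call of Tubb3 ended with DESeq2 (adjusted p = 0.0873), with an offset for transcript length (-0.20, edgeR adjusted p = 0.081) and without collection 2 (adjusted p = 0.126) or collection 3 (adjusted p = 0.289). Nes passed without collection 1 (-0.20, edgeR adjusted p = 0.0284) or collection 3 (-0.37, adjusted p = 0.0343). Over the 12 alternatives the adjusted p ran from 0.00109 to 1 for Tubb3, which passed in 4, and from 0.00725 to 1 for Nes, which passed in 3.

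**Figure D2:**
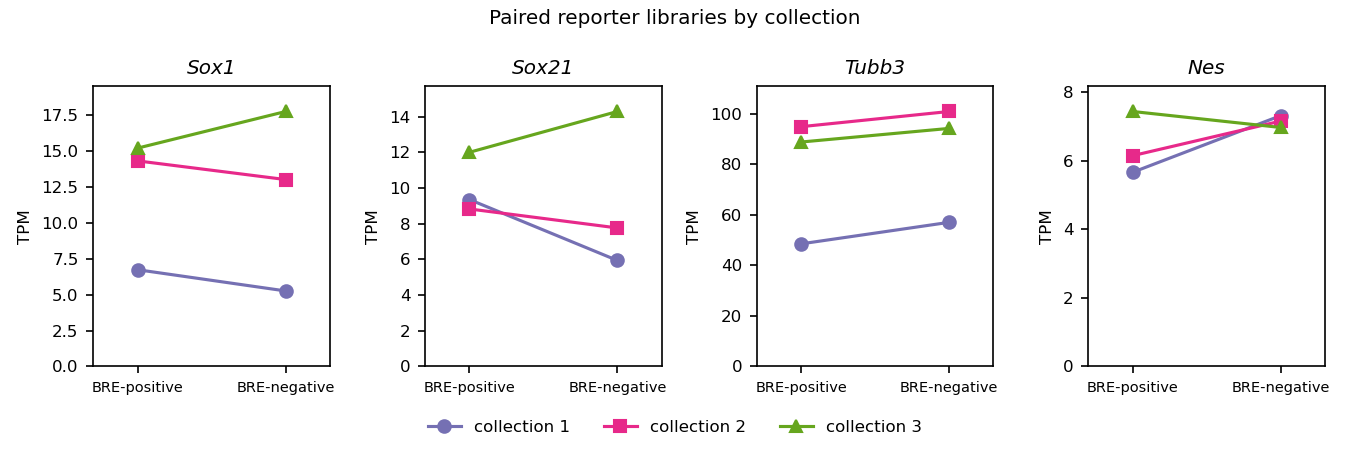
TPM of Sox1, Sox21, Tubb3 and Nes in the BRE-positive and BRE-negative libraries, joined by collection, with 1 panel per gene and vertical axes from 0. Tubb3 is lower in the BRE-positive library of each pair, and its level in collection 1, 48.5 and 57.0 TPM, lies below that in the other collections.

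For Sox1 and Tubb3 the collections differed more than the reporter groups did. Averaged over the 2 libraries of a collection, Sox1 had 5.99, 13.7 and 16.5 TPM in collections 1 to 3, and was 2.28-fold higher in collection 2 and 2.75-fold higher in collection 3 than in collection 1. Tubb3 had 52.7, 97.8 and 91.4 TPM (1.86-fold and 1.73-fold higher), and Pax6 0.0232, 0.0393 and 0.0529 TPM (1.70-fold and 2.28-fold). Zic1, at 1 to 5 counts in these libraries, was too low to compare. Over all genes, 8.49% of 15328 were at least 1.5-fold higher in both later collections. Sox21 had 7.65, 8.30 and 13.2 TPM, Ncam1 1.89, 2.35 and 3.02 TPM and Nes 6.48, 6.65 and 7.20 TPM. The feeder markers were also lowest in collection 1, and their part in these values was not tested. Zfp521 had 0.921, 0.826 and 0.985 TPM, and its first collection lay between the other two. Each collection is 1 pair of libraries, so these differences have no test.

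The other neural lists gave single calls between the reporter groups, where 2.97% of all genes passed, 1.02% as lower. Of 24 tested early neural and neural plate genes 1 was lower and 0 higher (4.17% called, median log2 fold change -0.07). Of 13 Notch pathway and proneural genes 1 was lower and 0 higher (7.69% called, median -0.02), and of 17 neuronal genes 1 and 0 (5.88%, 0.04). With 1 call per list, these shares say nothing particular to the lists. Zic2, a zinc finger gene of neural plate and primed epiblast, stood at 8.09 ± 2.6 TPM in BRE-positive and 10.1 ± 3.6 TPM in BRE-negative cells (SD, n = 3 each, log2 fold change -0.41, edgeR adjusted p = 0.0286). Hes6, which promotes neuronal differentiation, had 13.1 ± 0.87 and 16.2 ± 2.6 TPM (SD, n = 3 each, -0.39, edgeR adjusted p = 0.0114). Crmp1, a gene of axon guidance, had 3.29 ± 0.83 and 5.57 ± 1.1 TPM (SD, n = 3 each, -0.86, edgeR adjusted p = 0.000866). The calls of Hes6 and Crmp1 held in 3 of 3 fits that left out 1 collection, and that of Zic2 in 1 of 3. Of 6 ID and inhibitory SMAD genes 0 passed (median -0.05), and of 6 other beta-tubulin genes 0 (-0.13). How reads shared between beta-tubulin genes were counted is not given.

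The second comparison asked whether loss of Smad1 and Smad5 changes the neural priming genes under 2i and Lif. None of the 7 tested members passed the edgeR test, 1 had an unadjusted p under 0.05 (Tubb3), DESeq2 called 1 and limma 0. Over all genes, 5.03% passed (801 of 15933), 1.85% as higher and 3.18% as lower. Tubb3 stood at 60.5, 70.0, 66.2 and 78.1 TPM in KO replicates 1 to 4, against 107.9 and 88.1 TPM in FL. The 4 KO libraries lay below both FL libraries. The difference was 1.39-fold (log2 fold change -0.48 ± 0.12, SE, edgeR adjusted p = 0.0567), with a 95% interval of -0.75 to -0.21. It passed with DESeq2 (-0.49, adjusted p = 0.00799) and in 2 of 6 possible assignments of libraries to parental lines, FL 1 with KO 1 and 2 (edgeR adjusted p = 0.0128) and FL 1 with KO 2 and 4 (0.0285). Over 20 alternatives it passed in 4, with adjusted p from 0.00799 to 0.427.

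Sox21 had 1.37, 2.75, 1.69 and 2.04 TPM in KO cells, against 2.70 and 3.02 TPM in FL cells. The groups overlapped through KO replicate 2, and the log2 fold change was -0.50 ± 0.29 (SE, edgeR adjusted p = 0.339). Sox1 was at 1.11, 1.27, 1.46 and 1.39 TPM in KO and 1.02 and 1.43 TPM in FL cells. Its range was nearly the same in both groups, with a log2 fold change of 0.13 ± 0.22 (SE) and an interval of -0.38 to 0.64. Nes was uneven among the KO libraries, at 5.87, 4.09, 9.44 and 10.8 TPM, against 5.70 and 7.97 TPM in FL cells. KO replicates 3 and 4 lay above both FL libraries and KO replicate 2 below them, and the log2 fold change was 0.16 ± 0.32 (SE, edgeR adjusted p = 0.807). Ncam1 had 13.8, 9.72, 12.1 and 11.9 TPM in KO, against 14.5 and 12.1 TPM in FL (-0.13 ± 0.14, SE, interval -0.45 to 0.19). Pax6 had 34 to 62 counts in KO and 51 and 94 in FL libraries, and its log2 fold change was -0.45 ± 0.33 (SE, edgeR adjusted p = 0.452). Zfp521 had 4 to 10 counts in KO and 9 and 17 in FL libraries (-0.76 ± 0.49, SE, interval -1.89 to 0.37). At these counts and numbers of libraries the interval is wide and holds differences in both directions.

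Among the other neural genes, 2 of 25 tested early neural and neural plate genes were higher in KO and 0 lower (median log2 fold change -0.13, against 0.01 over all genes). Over all genes, 5.03% passed, 1.85% as higher and 3.18% as lower. Beside that share, the small counts of the lists here say nothing particular to them. Sox11, a SOXC factor gene of neural progenitors, stood at 2.18 ± 0.43 TPM in KO (SD, n = 4) and 1.19 ± 0.15 TPM in FL cells (SD, n = 2, log2 fold change 0.91, edgeR adjusted p = 0.0461). Of 14 Notch pathway and proneural genes, the receptor gene Notch3 was higher (29.4 ± 6.0 and 18.6 ± 0.51 TPM, SD, n = 4 and 2, 0.69, edgeR adjusted p = 0.0362) and 0 were lower (median 0.19). Of 16 neuronal genes 0 passed (median -0.11). Id3, which encodes an inhibitor of basic helix-loop-helix factors, stood at 23.5 ± 10.8 TPM in KO and 6.60 ± 2.3 TPM in FL cells (SD, n = 4 and 2). It was the 1 call, higher, among 6 ID and inhibitory SMAD genes (1.86, edgeR adjusted p = 0.0489, list median 0.30). Tubb6, at 41.4 ± 6.1 TPM in KO and 72.5 ± 7.1 TPM in FL cells (SD, n = 4 and 2), was the 1 call, lower, among 5 other beta-tubulin genes (-0.78, edgeR adjusted p = 0.0231, list median -0.10). With 1 library left out, the calls of Sox11 and Id3 ended in 5 of 6 fits and those of Notch3 and Tubb6 in 4 of 6.

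For Sox1, Sox21, Zfp521, Pax6 and Ncam1, larger differences lay between the experiments than between the groups of either experiment. The share of all genes of which this holds was not computed, so it cannot be read as particular to the members. Culture medium, feeders, strain, reporter and sorting differ together between the experiments and cannot be told apart. Nor can they be told from a difference between the 2 experiments as such. The counts of the 2 libraries of a collection were summed, and the 3 collections were set against the 2 FL libraries, with the KO libraries in the same fit for the estimate of spread. In this comparison 5 of the 7 tested members passed, 3 higher and 2 lower in the BRE collections, where 52.4% of all genes passed (8888 of 16963, 25.1% higher and 27.3% lower). The members' count is given beside that share and says nothing particular to them. The median log2 fold change was -0.01 for the members and -0.02 over all genes.

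Sox1 averaged 12.04 ± 5.4 TPM in the BRE collections (SD, n = 3) and 1.23 ± 0.29 TPM in FL cells (SD, n = 2). That was 9.77-fold higher (log2 fold change 3.29 ± 0.36, SE, edgeR adjusted p = 3.43e-05), and the lowest BRE library, at 5.26 TPM, lay above the highest FL library. Sox21 averaged 9.70 ± 3.0 and 2.86 ± 0.23 TPM in these groups, 3.38-fold higher (1.76 ± 0.31, SE, edgeR adjusted p = 0.000851). Zfp521 averaged 0.911 ± 0.080 and 0.177 ± 0.064 TPM, 5.45-fold higher (2.45 ± 0.39, SE, edgeR adjusted p = 0.000428), on 9 and 17 counts in FL. The neural plate gene Pax6 and the adhesion gene Ncam1 went the other way. Ncam1 averaged 2.42 ± 0.57 TPM in the BRE collections and 13.3 ± 1.7 TPM in FL cells, 5.56-fold lower (log2 fold change -2.47 ± 0.17, SE, edgeR adjusted p = 1.69e-06). Pax6 averaged 0.0385 ± 0.015 and 0.220 ± 0.082 TPM, 6.26-fold lower (-2.65 ± 0.40, SE, edgeR adjusted p = 0.000276), on 7 to 15 counts per BRE library and 51 and 94 in FL. Tubb3, at 80.6 ± 24.4 and 98 ± 14.0 TPM, gave a difference of -0.30 ± 0.19 on the log2 scale (SE, edgeR adjusted p = 0.199). Nes, at 6.78 ± 0.37 and 6.83 ± 1.6 TPM, had one of -0.01 ± 0.29 (SE), with an interval of -0.65 to 0.64.

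The 5 calls held in 5 of 5 fits that left out 1 collection or 1 FL library. The log2 fold change then ran from 3.02 to 3.59 for Sox1, from 1.52 to 1.88 for Sox21, from 2.13 to 2.91 for Zfp521, from -2.62 to -2.31 for Ncam1 and from -2.96 to -2.21 for Pax6. Feeder markers also differed between the BRE collections and FL cells. Of 15 markers 13 were higher in the BRE collections and 0 lower (86.7% called, against 52.4% of all genes). Their median log2 fold change was 4.55, against -0.02 over all genes. The part of the feeder markers in the higher values of Sox1, Sox21 and Zfp521 was not tested. In bulk RNA, a change in the number of cells that express a gene and a change in its RNA per cell cannot be told apart.

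**Figure D3:**
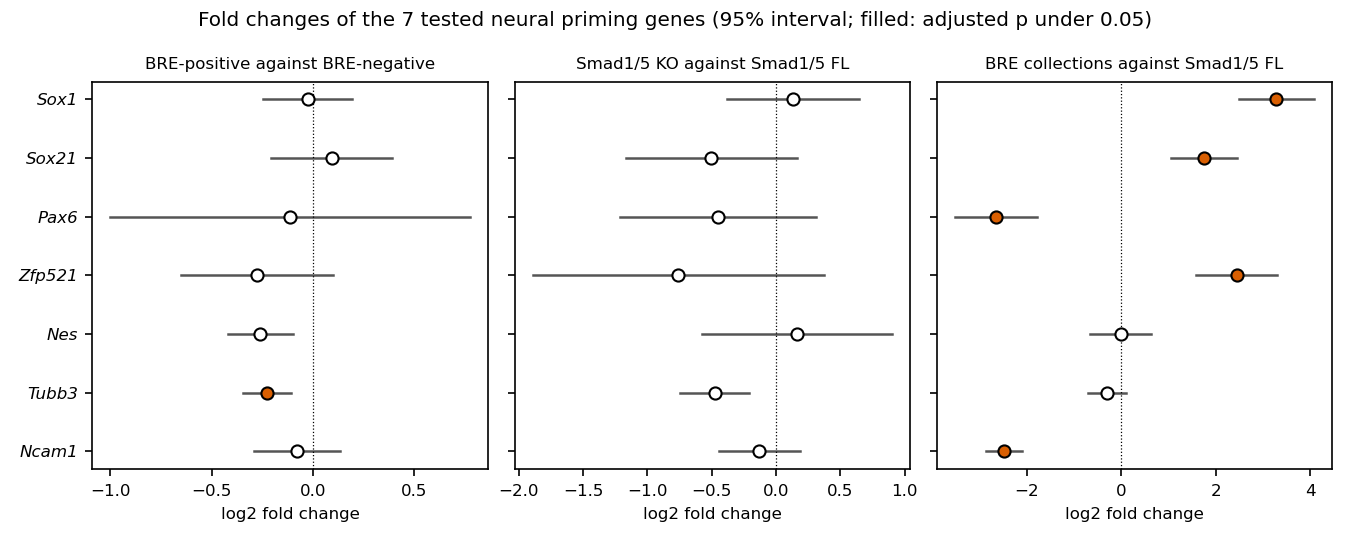
Log2 fold changes of the 7 tested neural priming genes in the 3 comparisons, with 1 panel per comparison and its own horizontal axis, points at the edgeR estimate, bars for the 95% interval and filled points for an adjusted p under 0.05. Tubb3 is the filled point between the reporter groups (-0.23), none is filled between KO and FL, and 5 are filled between the BRE collections and FL, from -2.65 for Pax6 to 3.29 for Sox1.

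The wider neural lists split in the same comparison, in which 52.4% of all genes passed. Of 27 tested early neural and neural plate genes, 9 were higher and 7 lower in the BRE collections (59.3% called, median log2 fold change -0.08). Olig2, which specifies motor neuron and oligodendrocyte progenitors, stood at 19.5 ± 2.4 TPM in the BRE collections (SD, n = 3) and 0.268 ± 0.24 TPM in FL cells (SD, n = 2), 80.7-fold higher (log2 fold change 6.33, edgeR adjusted p = 3.21e-06) on 2 and 13 counts in FL. Without FL 1 the log2 fold change of Olig2 was 5.61, and without FL 2 it was 8.13. Pax7, of the dorsal neural tube, had 0.0388 ± 0.015 and 0.320 ± 0.083 TPM (-3.57, edgeR adjusted p = 0.000186), on 0 to 5 counts per BRE library and 21 and 29 in FL. Hesx1, a homeobox gene of the anterior neural plate, had 3.64 ± 0.28 and 29.7 ± 2.7 TPM (-3.04, edgeR adjusted p = 4.92e-07). Of 14 Notch pathway and proneural genes 6 were higher and 1 lower (50% called, median 0.64), led by Neurod1, a proneural factor gene (4.36-fold), the Notch ligand gene Dll3 (3.53-fold) and Rbpj, the DNA-binding partner of Notch (3.03-fold, edgeR adjusted p = 0.000532, 0.00641 and 1.11e-05). Without FL 1 the call of Dll3 ended (edgeR adjusted p = 0.0604, range over 15 alternatives 0.000223 to 0.0604). Of 17 neuronal genes (23.5% called), 1 was higher, Rbfox3 (1.49, edgeR adjusted p = 0.0276), and 3 lower, among them Crmp1 (-1.34) and Gap43, of growing axons (-0.90, edgeR adjusted p = 0.00059 and 0.0206). The call of Rbfox3 ended without collection 1 or 3 or FL 1 (log2 fold change 0.97 without FL 1 and 2.41 without FL 2), and it passed in 7 of 13 alternatives, with adjusted p from 0.0142 to 0.212. That of Gap43 also ended without collection 1 or 3 or FL 1 (-0.80, -0.74 and -0.48), and it passed in 9 of 15, with adjusted p from 0.00651 to 0.28. Among 6 ID and inhibitory SMAD genes 4 were higher and 1 lower (83.3% called, median 1.27). Id1 stood at 34.2 ± 6.0 TPM in the BRE collections and 6.43 ± 0.25 TPM in FL cells, with Id2 and Id3 also higher (5.28-fold, 4.77-fold and 3.26-fold, edgeR adjusted p = 1.88e-06, 0.000281 and 0.00512). Without FL 1 the call of Id3 ended (edgeR adjusted p = 0.0533, range over 15 alternatives 2.01e-05 to 0.0713). The other beta-tubulin genes had 1 call higher, Tubb4a (2.96), and 3 lower out of 6 (66.7% called), among them Tubb2b (-0.65) and Tubb4b (-0.62, edgeR adjusted p = 0.000777, 0.00142 and 0.000743). Tubb4a had 2 and 7 counts in FL, and its log2 fold change was 4.18 without FL 1 and 2.29 without FL 2.

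**Figure D4:**
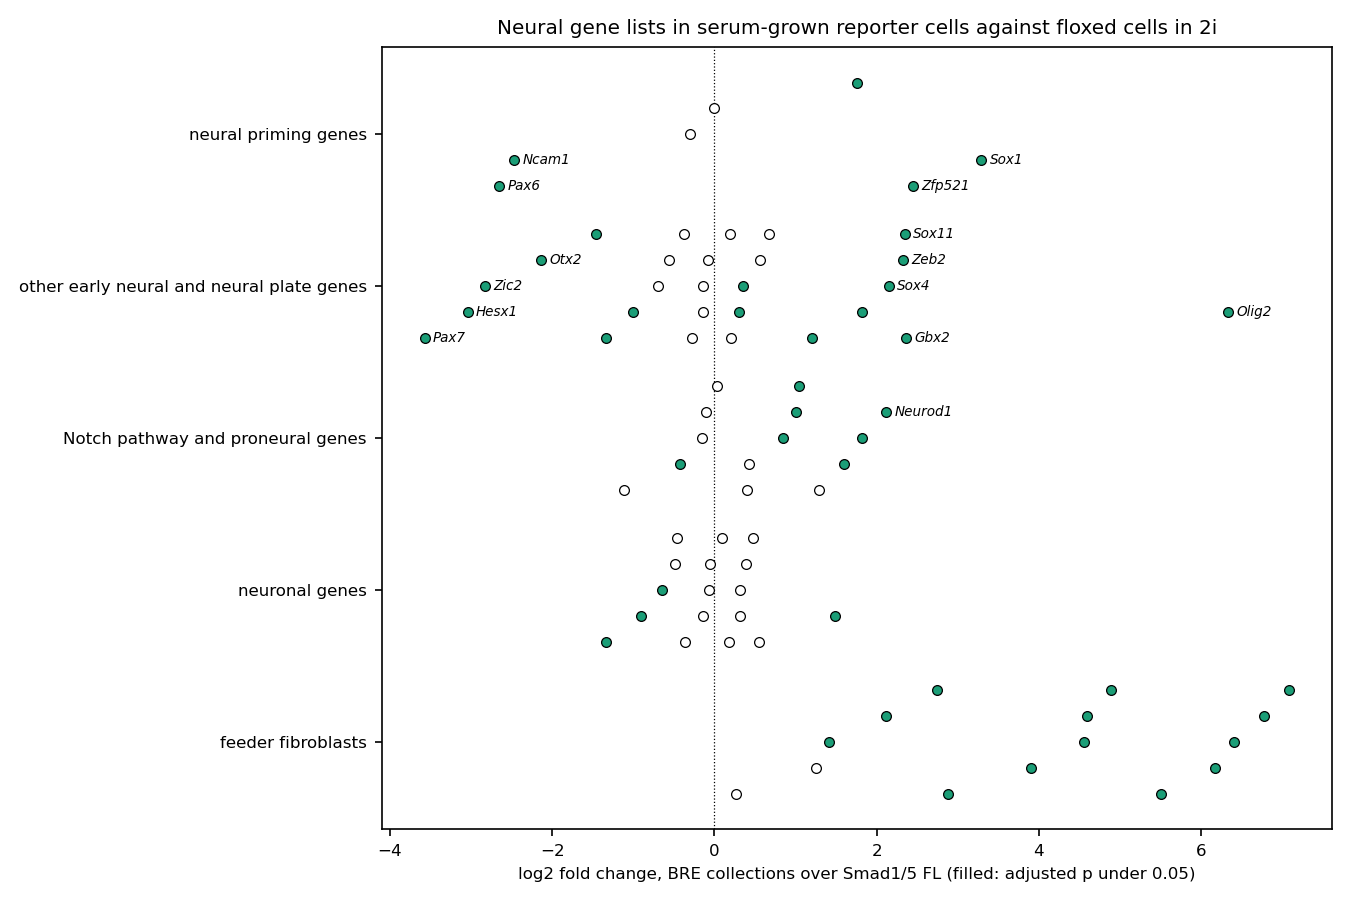
Log2 fold change between the BRE collections and FL cells of each tested gene, by gene list, with 1 point per gene, filled where the adjusted p is under 0.05 and a line at 0. The neural priming genes lie on both sides of 0, as do the other early neural genes, from -3.57 for Pax7 to 6.33 for Olig2.

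For each of the 7 tested members, the genes of most similar level across the 12 libraries were sought among 13072 genes, after the mean of each experiment was removed. The likeness is Pearson's r of log2(CPM + 0.5), where CPM is counts scaled to library size, and it is a description, since the libraries share collections, lines and depth. Sox1 was closest to Wdr44 (0.963), Eif1a (0.961) and Crkl (0.951). Tubb3 was closest to Igfbp3 (0.955), to the neural plate gene Zic2 (0.936) and to Rpl10l (0.936). Nes was closest to Dusp8 (0.906), Ddx28 (0.893) and Gpr20 (0.890), and Zfp521 to Itgb5 (0.920), Fam195b (0.913) and Rgs16 (0.912). Ncam1 was closest to Fanci (0.914), the pseudogene Gm12844 (0.887) and Mgat2 (0.885). Sox21 was closest to Hcfc2 (0.899), Ggnbp2 (0.899) and Nceh1 (0.874), and Pax6 to Zfp9 (0.917), Gcnt1 (0.906) and Slc25a24 (0.905). No member was among the 3 closest genes of another.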

How the data were processed

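Gene counts of 12 libraries and a table of TPM values were used as deposited. Per the submitters' processing notes, the tools were STAR 2.4.1d, featureCounts 1.4.6, FastQC 0.11.3, DESeq2 1.6.3 and CASAVA 1.8.2, with builds mm10 and GRCm38.p4 and no stated order or strand setting. The deposited TPM signal equals (count + 1) per length, scaled to a sum of 1000000 over unique genes (largest relative deviation 4.2e-14), so genes near 0 counts keep a TPM above 0. Library totals ranged from 25862573 to 37319846 counts.

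Counts were tested with edgeR 4.0.16 (R 4.3.3): TMM scaling, filterByExpr (minimum count 10, total 15), the quasi-likelihood test and Benjamini-Hochberg adjustment over all genes tested, with 0.05 as threshold. SE is the log2 fold change divided by the square root of F, and intervals are 95%. The BRE fit had the pair as block, since the series states pairs. Deviations from the group means correlated at 0.814, 0.78 and 0.739 for same-numbered libraries, against -0.763 to 0.0681 for other library pairs. Taking out the group means itself lowers the values of the other pairs, so part of this contrast is built in. KO and FL numbers do not pair libraries, and which library came from which parental line is not given, so the fit counts the 4 KO libraries as independent. The series speaks of biological replicates without describing separate cultures or clones, so the p-values reflect only how these libraries vary. Alternatives were RLE scaling, other filters, DESeq2 1.42.0, limma 3.58.1 on log2(TPM + 1) and log2(TPM + 0.1), other blocks and leaving out parts of the data. Left out in turn were each pair in the BRE fit, each library in the KO fit, and each collection or FL library in the collections fit. The edgeR fits were tested on simulated counts with genes changed by known folds.

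The members and the gene lists were chosen with earlier results of these data known. All 9 members are named, with up to 3 called genes per list and comparison by size of change, and the 3 genes most alike to each member; 1 called gene of a list is not reported here. The other lists are pluripotency, feeder fibroblast, and neural crest and glia markers.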

Additional observations from a re-analysis of the deposited data

How the results depend on the processing

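Few libraries and unknown lines limit the results: 3 pairs in the reporter comparison, and 4 KO against 2 FL libraries. Between the reporter groups, 1 member passed and the count over all genes was 459. Without the replicate block these were 0 and 0, with limma on TPM 0 and 0 under each of 3 settings, with no count filter 2 and 1010, with DESeq2 0 members, with the length offset 0 and 265, and without 1 pair 0 to 2 and 200 to 2225. Between KO and FL, 0 members and 801 genes passed. Members were 1 with no count filter, with DESeq2 (1498 genes) and with the lines set as FL 1 with KO 1 and 2 or KO 2 and 4. All genes were 193, 98 and 149 with limma, 0 with the replicate number as block, 0 to 857 without 1 library, and 250 to 2927 over the 6 line assignments (250, 325, 380, 419, 498 and 2927). Across genes, deviations from the group means correlated at 0.372 and 0.553 between FL 1 and KO 1 and 2, and at 0.552 and 0.529 between FL 2 and KO 3 and 4. The deviations of the 2 FL libraries mirror each other, so this is only a hint from the data and not from the labels. The assignment of FL 1 with KO 1 and 2 gave the 2927 genes. With the replicate number as block, KO 3 and 4 have no FL partner, so only KO 1 and 2 were set against FL. For the BRE collections against FL, 8888 genes and 5 members passed, 7805 and 5 with the replicate block, and 3 members with limma on genes of at least 1 TPM, where Pax6 and Zfp521 were not tested. The cause of these shifts was otherwise not tested.

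Signs turned in members that did not pass. Between the reporter groups Sox1 became 0.07, 0.09 and 0.07 with limma and Ncam1 0.01. Without 1 pair, Sox1 ran from -0.17 to 0.16, Pax6 from -0.21 to 0.07 and Sox21 from -0.18 to 0.35, turned by pair 3 for Sox1 and Pax6 and by pair 1 for Sox21. Between KO and FL, Nes became -0.36 with the replicate block, in which KO 3 and 4 have no FL partner and do not enter the difference. Without 1 library, Sox1 ran from -0.08 to 0.36, Ncam1 from -0.29 to 0.03 and Nes from -0.05 to 0.39, turned by FL 1 and, for Nes, also by KO 4. For the collections, Nes became 0.01 with RLE scaling, 0.02 with other filters or DESeq2, 0.00 to 0.01 with limma, 0.04 without collection 2, and from -0.20 (without FL 1) to 0.24 (without FL 2). The cause was not tested. The other alternatives kept the direction of each member.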

Other observations

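Of 5 tested markers of neural crest and glia, 3 were higher in the BRE collections and 1 lower, where 52.4% of all genes passed. Between the reporter groups 0 of 4 passed (2.97% of all genes), and between KO and FL cells 0 of 3 (5.03% of all genes). Olig1, a gene of oligodendrocyte progenitors beside Olig2 in function, stood at 23.7 ± 2.9 TPM in the BRE collections (SD, n = 3) and 0.629 ± 0.25 TPM in FL cells (SD, n = 2), a difference of 5.32 on the log2 scale (edgeR adjusted p = 8.59e-07). Of the 8 pluripotency markers, 0 passed between the reporter groups. In KO cells Utf1 was higher and Nanog lower than in FL cells, and 2 were higher and 3 lower in the BRE collections. Of 7 feeder markers tested between KO and FL cells, Loxl1 was lower in KO.

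The 4 KO libraries held unlike levels of Nes. KO replicates 3 and 4 had 9.44 and 10.8 TPM, KO replicates 1 and 2 had 5.87 and 4.09 TPM, and the FL libraries had 5.70 and 7.97 TPM. Zfp521 (8 and 10 counts, 6 and 4 counts, and 9 and 17 counts in FL) and Pax6 (58 and 62, 34 and 41, and 51 and 94 counts in FL) were also higher in KO replicates 3 and 4. KO replicates 3 and 4 were the most alike in counts, with a median chi-square of 1.31, against 2.97 for replicates 1 and 2. Over all genes, 15.4% of 15818 differed at least 1.5-fold between these KO pairs.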
